A study of Mus musculus with 9 samples.

Results

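The NF-κB subunits and feedback genes described here are 10 mouse genes named by symbol: 4 subunit genes (Nfkb1, Nfkb2, Rela, Relb), 3 genes of inhibitors or modulators (Nfkbia, Nfkbiz, Tnfaip3) and 3 further direct targets (Birc3, Icam1, Ier3). They were found through their Ensembl identifiers among the 49671 genes of each count file, and all 10 were measured in every library. Bulk RNA-seq was done on dermal cells of female C57BL/6 mice that a cell sorter had picked for the melanocyte receptor KIT and against the immune marker CD45. At postnatal day 0.5 these were melanoblasts, the precursors in newborn skin (n = 3). At 8 to 10 weeks they were quiescent melanocyte stem cells, called adult McSC here (n = 4), and at 24 months they were aged McSC (n = 2). The labels name no engineered allele and no treatment in any group. The younger mice descended from C57BL/6J parents mated on site, and both McSC groups were taken while hair rested in telogen. The 24-month mice entered the facility from another colony at 21 months, so colony and age cannot be told apart. Each library pooled cells of several animals, and p-values therefore measure the spread between pools.

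NF-κB is a family of dimeric transcription factors built from Rel-domain proteins. In resting cells most dimers are held in the cytoplasm by IκB proteins. When receptors of the TNF, interleukin-1 or Toll-like families activate the IKK complex, IκB is degraded and the dimers enter the nucleus and bind κB sites. Several of the genes they switch on, among them those of IκBα and A20, encode proteins that end the signal, which makes a feedback loop. A separate noncanonical branch runs through the kinase NIK and the p100 precursor and yields RelB dimers. In skin, NF-κB is known for its roles in keratinocytes and, downstream of the ectodysplasin receptor, in the formation of hair follicles. Only RNA was measured here, not protein or its place in the cell.

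The promoters of the feedback loop are shown because κB sites are where the subunits act on their own inhibitors. Of the 10 genes, 7 had at least 1 RefSeq promoter window (GRCm38.p6, 250 bases before to 50 after an annotated start), 10 windows in all. Nfkb1, Relb and Nfkbiz were not analysed here for promoter sequence. The windows were searched on both strands for the κB consensus motif of 10 letters. Matches lay in windows of 4 genes, and capitals mark them in the sequences here, given 5′ to 3′ on the strand of the gene.
Nfkbia, chr12:55492598-55492897, minus strand: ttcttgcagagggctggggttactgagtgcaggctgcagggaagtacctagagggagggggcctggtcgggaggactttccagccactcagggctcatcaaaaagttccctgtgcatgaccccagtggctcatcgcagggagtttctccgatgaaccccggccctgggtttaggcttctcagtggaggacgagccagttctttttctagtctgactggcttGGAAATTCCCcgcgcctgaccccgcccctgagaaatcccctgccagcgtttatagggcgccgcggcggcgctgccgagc
Tnfaip3, chr10:19015361-19015660, minus strand: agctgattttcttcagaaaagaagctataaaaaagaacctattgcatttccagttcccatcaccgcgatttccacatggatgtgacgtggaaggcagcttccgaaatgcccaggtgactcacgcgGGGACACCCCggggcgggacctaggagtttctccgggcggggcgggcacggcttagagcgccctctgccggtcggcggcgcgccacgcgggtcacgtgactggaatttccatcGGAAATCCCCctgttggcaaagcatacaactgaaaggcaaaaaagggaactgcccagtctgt
Ier3, chr17:35821463-35821762, plus strand: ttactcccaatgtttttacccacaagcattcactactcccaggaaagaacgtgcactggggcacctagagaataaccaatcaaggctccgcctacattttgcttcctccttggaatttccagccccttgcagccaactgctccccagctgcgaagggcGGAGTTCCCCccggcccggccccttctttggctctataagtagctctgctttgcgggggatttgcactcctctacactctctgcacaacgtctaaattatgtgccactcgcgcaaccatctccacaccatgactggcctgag
Nfkb2, chr19:46304487-46304786, plus strand: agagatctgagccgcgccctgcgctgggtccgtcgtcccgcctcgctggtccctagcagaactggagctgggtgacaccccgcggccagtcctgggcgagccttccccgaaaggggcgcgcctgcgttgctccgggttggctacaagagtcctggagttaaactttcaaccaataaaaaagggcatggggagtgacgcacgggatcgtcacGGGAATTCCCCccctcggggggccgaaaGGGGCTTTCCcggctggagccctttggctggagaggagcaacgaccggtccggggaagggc
The Nfkbia match began 29 bases before the start site. The matches of Tnfaip3 began 125 and 12 bases before its start and that of Ier3 began 92 bases before its start. In Nfkb2, overlapping matches began 39 and 38 bases before this start and a separate one began 11 bases before it. The other Nfkb2 windows, at other annotated starts, also held matches. No match was found in the windows of Rela, Birc3 and Icam1, which says only that these letters are not in those windows. Across all 32851 mouse windows of the same length, 4.51% held at least 1 match, and 5.14% of genes had a match in some window. At least 2 matches were in 0.941% of windows, with a site that matched on both strands counted as 2. For Nfkb2 above, such a site is given once. A match is a description of sequence; binding was not measured.

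Total counts ran from 23688288 to 33710117 in the melanoblast, 19956424 to 21572026 in the adult and 12594770 to 16362560 in the aged libraries. Levels are given as CPM (counts scaled to a common library size with TMM factors), and 31961 genes passed the filter on low counts, all 10 members among them. Counts of the members lay between 55 and 4418 per library. Dct, a pigment-pathway enzyme, was at 5493 to 11168 CPM in melanoblasts, 1871 to 4729 in adult McSC and 3499 to 5200 in aged McSC, and none of the 10 melanocyte lineage markers was at 0 in all libraries. Melanoblast 3 had the lowest summed lineage markers of its group (14482 CPM, against 24501 and 26271 in melanoblasts 1 and 2), and adult McSC 2 the highest of its group (10930 CPM, against 4480 to 7507 in the other adult libraries). Results that rest on these libraries are also given without them. Genes of odorant and vomeronasal receptors, which serve as a measure of background counts, had a 95th percentile of 0.823 CPM in melanoblasts, 1.85 in adult McSC and 2.17 in aged McSC. Every member averaged above these levels in every group.

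Adult McSC were set against melanoblasts to see how the resting stem cell differs from its newborn precursor. Of the 10 genes, 7 rose in adult McSC and none fell (edgeR's quasi-likelihood test, Benjamini-Hochberg adjusted p under 0.05), where 15.1% of all genes tested rose and 18.3% fell. All 10 log2 fold changes were above 0, and 9 had an unadjusted p under 0.05, where 14275 of the 31961 genes tested did. The median log2 fold change of the 10 was 1.17, and that of all genes tested was 0.39. The 7 that rose were Nfkb2, Relb, Nfkbia, Nfkbiz, Tnfaip3, Birc3 and Ier3, and Rela had the smallest difference. In 7 of the 10 the adult libraries all lay above the melanoblast libraries, where the share was 19.5% of all genes tested; these were Nfkb1 and the genes that rose, except Relb.

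**Figure D1:**
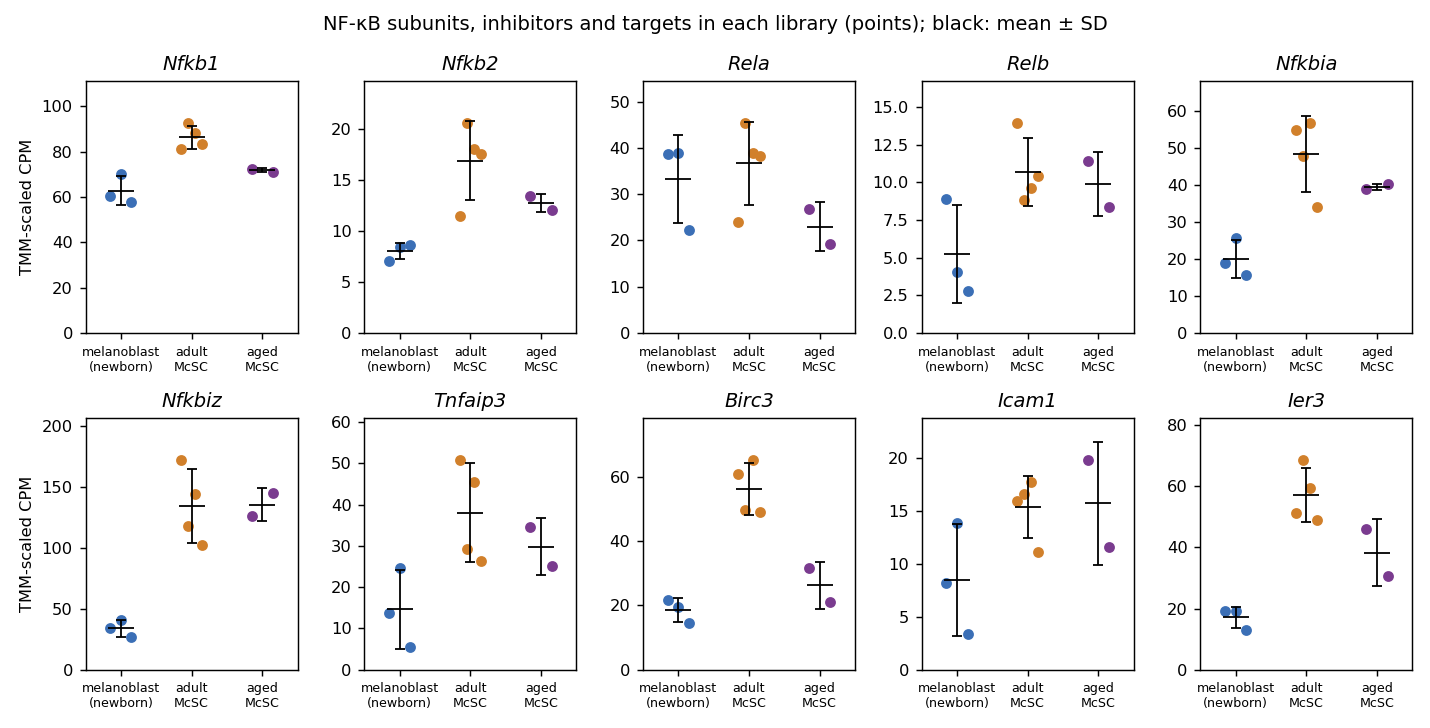
TMM-scaled CPM of the 10 genes (y axis, linear from 0) in each library, by age group (x axis); points are libraries and black bars the mean ± SD (n = 3, 4 and 2, in order of age). Nfkbiz, Birc3 and Ier3 in adult McSC lie well above melanoblasts, while the Rela groups overlap.

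Among the subunits, Nfkb2 (ENSMUSG00000025225, chr19:46304320-46312385, plus strand of mm10) encodes p100, which binds RelB and is processed to p52 in the noncanonical branch. It had 11.4, 20.6, 18.0 and 17.5 CPM in adult McSC, against 7.10, 8.39 and 8.63 CPM in melanoblasts. Every adult library lay above every melanoblast library, with adult McSC 1 the nearest to them. Its log2 fold change was 1.07 (SE 0.261, adjusted p = 0.00274 by edgeR). Exons of Psd lie on the opposite strand over 299 bases of Nfkb2 exons, and Psd had 10.1 to 14.5 CPM in adult McSC against 5.42 to 9.23 in melanoblasts. Whether counting used strand is not given in the sources used here, so shared reads cannot be told apart.

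Relb (ENSMUSG00000002983, chr7:19606217-19629438, minus strand), which encodes the RelB subunit that pairs with p52, had 13.9, 8.81, 9.66 and 10.4 CPM in adult McSC. In melanoblasts it had 8.90, 4.07 and 2.76 CPM. The groups overlapped, since melanoblast 1 lay just above adult McSC 2. The log2 fold change was 1.04 (SE 0.343, adjusted p = 0.0221 by edgeR). This call was the least stable of the 7: without melanoblast 3 the log2 fold change was 0.73 (adjusted p = 0.0689), without melanoblast 2 it was 0.89 (adjusted p = 0.0793), and without adult McSC 1 it was 0.98 (adjusted p = 0.0526). Without melanoblast 1, the highest of its group, it was 1.65 (adjusted p = 0.00191). It was also not called by limma voom (0.71, adjusted p = 0.0581) or without both melanoblast 3 and adult McSC 2 (0.81, adjusted p = 0.0539).

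The subunits of the canonical p50 and p65 dimer gave smaller differences that did not pass. Nfkb1 (ENSMUSG00000028163, chr3:135584655-135691547, minus strand), which encodes the p105 precursor of p50, had 81.3, 92.6, 88.0 and 83.3 CPM in adult McSC, against 60.4, 69.9 and 58.0 CPM in melanoblasts. The groups did not overlap, and the log2 fold change of 0.46 did not pass (SE 0.203; adjusted p = 0.0824 by edgeR), and it was called in 6 of 18 alternative settings. Rela (ENSMUSG00000024927, chr19:5637483-5648130, plus strand), which encodes the transactivating subunit p65, had 24.1, 45.4, 38.8 and 38.3 CPM in adult McSC and 38.6, 39.0 and 22.2 CPM in melanoblasts. Adult McSC 1 and melanoblast 3 were low and the others were alike. The log2 fold change of Rela was 0.14 (SE 0.254, adjusted p = 0.688 by edgeR), and it was -0.083 without melanoblast 3 (adjusted p = 0.795). Rela was called higher in 2 of 18 alternative settings. These were a filter of 5 CPM in 2 libraries (0.63, adjusted p = 0.0247 by edgeR) and factors taken from abundant genes alone (0.96, adjusted p = 0.00172 by edgeR).

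The inhibitors and modulators rose together. Nfkbia (ENSMUSG00000021025, chr12:55489410-55492647, minus strand), the gene of IκBα and the classical feedback target whose promoter is printed above, had 54.7, 47.8, 56.7 and 34.1 CPM in adult McSC, against 18.8, 25.6 and 15.6 CPM in melanoblasts. Adult McSC 4 was the lowest adult library and still lay above all melanoblasts. The log2 fold change was 1.27 (SE 0.242, adjusted p = 0.000248 by edgeR).

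Nfkbiz (ENSMUSG00000035356, chr16:55811375-55838899, minus strand) encodes IκBζ, a nuclear IκB protein that works with p50 at a subset of target genes. It had 172, 118, 144 and 103 CPM in adult McSC, against 34.0, 41.1 and 26.9 CPM in melanoblasts. This was the largest difference of the 10 in this fit, with the lowest adult library far above the highest melanoblast library. The fold was 3.95 (log2 1.98, SE 0.243, adjusted p = 9.88e-07 by edgeR). Tnfaip3 (ENSMUSG00000019850, chr10:19000910-19015657, minus strand), the gene of the ubiquitin-editing enzyme A20 that shuts off signalling to IKK, had 50.9, 29.3, 45.5 and 26.4 CPM in adult McSC, against 13.8, 24.6 and 5.57 CPM in melanoblasts. The groups were close to touching, at adult McSC 4 and melanoblast 2, and both varied widely. Its log2 fold change was 1.38 (SE 0.364, adjusted p = 0.00651 by edgeR), and without melanoblast 3, the lowest library, it was 0.99 (adjusted p = 0.00849).

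Of the further targets, Birc3 (ENSMUSG00000032000, chr9:7848699-7873186, minus strand) encodes cIAP2, a ubiquitin ligase of TNF receptor complexes that protects cells from death. It had 61.0, 49.8, 65.3 and 49.1 CPM in adult McSC, against 21.6, 19.4 and 14.4 CPM in melanoblasts. All adult libraries lay above all melanoblast libraries, and the log2 fold change was 1.61 (SE 0.239, adjusted p = 1.41e-05 by edgeR). Ier3 (ENSMUSG00000003541, chr17:35821684-35822923, plus strand), an early response gene linked to cell survival, had 51.4, 68.7, 59.5 and 49.1 CPM in adult McSC, against 19.2, 19.1 and 13.1 CPM in melanoblasts. The groups were widely separated, and the log2 fold change was 1.74 (SE 0.242, adjusted p = 6.09e-06 by edgeR).

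Icam1 (ENSMUSG00000037405, chr9:21015985-21028817, plus strand), whose protein is the adhesion ligand of leukocyte integrins, had 16.0, 16.6, 17.8 and 11.2 CPM in adult McSC, against 8.21, 13.9 and 3.36 CPM in melanoblasts. Melanoblast 2 lay above adult McSC 4, so the groups overlapped. The log2 fold change was 0.86 (SE 0.343) and did not pass (adjusted p = 0.056 by edgeR); it was called in 10 of 18 alternative settings, and without melanoblast 3 it was 0.48 (adjusted p = 0.181) and without melanoblast 2 it was 1.42 (adjusted p = 0.00371). The antisense gene Gm47079 overlaps 511 bases of its exons and stayed at or under 1.38 CPM in all libraries.

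The 6 genes Nfkb2, Nfkbia, Nfkbiz, Tnfaip3, Birc3 and Ier3 were called in all 18 alternative settings. The scale of the comparison depends on the normalization and on the filter. With factors taken from abundant genes alone, the median of all genes moved to 1.17 and all 10 members were called higher. Over all genes, 85.2% of calls were then higher in place of 45.3%. Of the 31961 genes tested, 10574 were called higher and 1840 lower with those factors, against 4836 and 5840 with TMM. Relative to the median of all genes, Nfkbiz was at 1.59 with TMM and 1.67 with those factors, Nfkbia at 0.88 and 0.95, Nfkb1 at 0.068 and 0.096, and Rela at -0.25 and -0.21. These relative values also rest on which genes are kept. With a stricter filter (5 CPM in 2 libraries) all 10 members were called higher too. Over all genes, 51.3% of calls were then higher and the median was 0.053, while Nfkb1 was at 0.94 and Rela at 0.63.

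**Figure D2:**
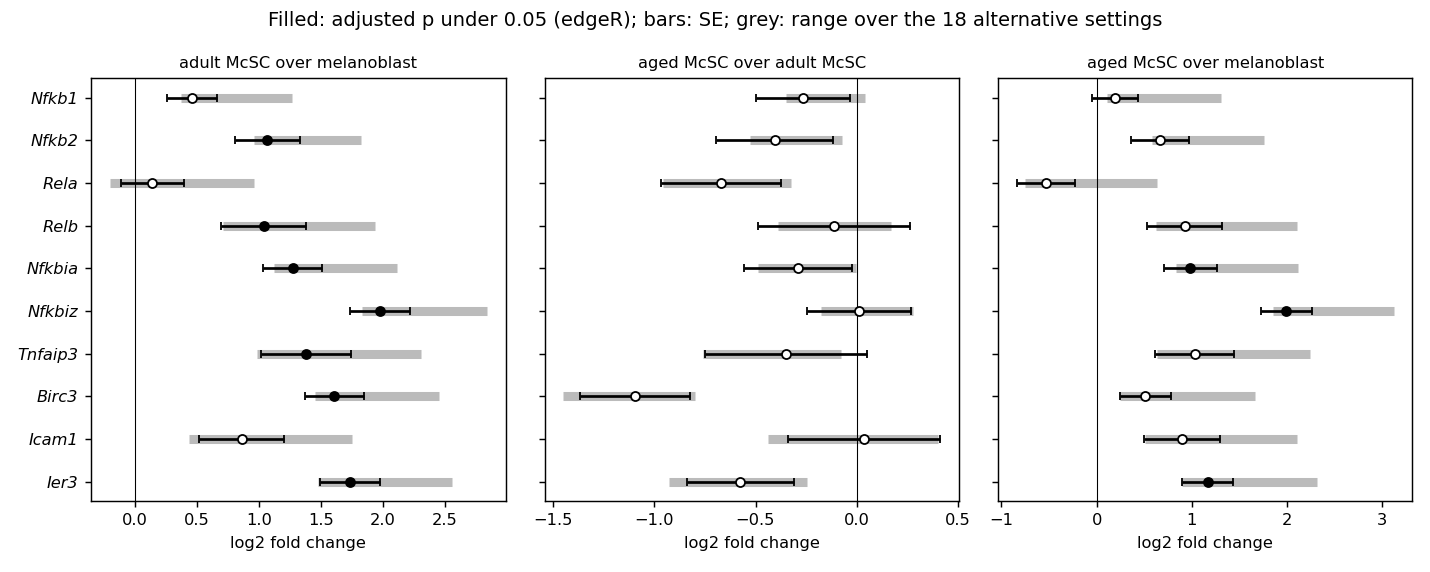
Log2 fold changes (x axis) of the 10 genes in 3 comparisons (panels); points are edgeR estimates with SE bars, filled where the adjusted p was under 0.05, and grey bars span the 18 alternative settings. In adult McSC over melanoblasts 7 points are filled, in aged over adult McSC none, and in aged McSC over melanoblasts 3.

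Per kilobase of annotated exon, Ier3 had the highest mean of the 10 in all 3 groups. The length used was the union of all annotated exons of a gene, from 1131 bases in Ier3 to 12061 in Nfkb1. Which transcripts were present was not measured, so the order of genes rests in part on the annotation. Its level was 15.2 ± 3.13 CPM per kilobase in melanoblasts, 50.6 ± 7.86 in adult McSC and 33.9 ± 9.59 in aged McSC (SD, n = 3, 4 and 2). Its libraries overlapped those of Nfkbia, the next gene, in melanoblasts and those of Nfkbiz in aged McSC, and stood clear of all other members in adult McSC. In adult McSC, Nfkbia (30.0 ± 6.36 CPM per kilobase) and Nfkbiz (26.8 ± 6.10) came next and overlapped each other. Rela (11.9 ± 2.92) and Birc3 (11.2 ± 1.62) also overlapped, and the Nfkb1 libraries (7.16 ± 0.418) all lay below Birc3. Tnfaip3 (5.26 ± 1.66), Nfkb2 (3.68 ± 0.847), Icam1 (3.53 ± 0.670) and Relb (2.76 ± 0.581) followed, each overlapping the gene before it. In melanoblasts the mean of Rela stood above that of Nfkbiz, and in both older groups it stood below. Relb had the lowest mean of the 10 in each group, and overlapped the gene next to it in each.

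The immediate early genes, a list of rapidly induced transcription factors and regulators, were examined because several NF-κB targets share their fast induction. Of 20 tested, 18 rose in adult McSC and none fell, with a median log2 fold change of 1.87. Of all genes tested, 15.1% rose and 18.3% fell, and their median was 0.39. Egr1, a zinc finger factor, averaged 1430 ± 287 CPM in adult McSC and 160 ± 72.7 CPM in melanoblasts (SD, n = 4 and 3) and rose by 3.16 on the log2 scale (adjusted p = 5.06e-08 by edgeR). Fosb, Junb and Egr2 rose by 2.83, 2.90 and 2.84 on the log2 scale. Their part in the levels of the 10 genes was not tested.

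**Figure D3:**
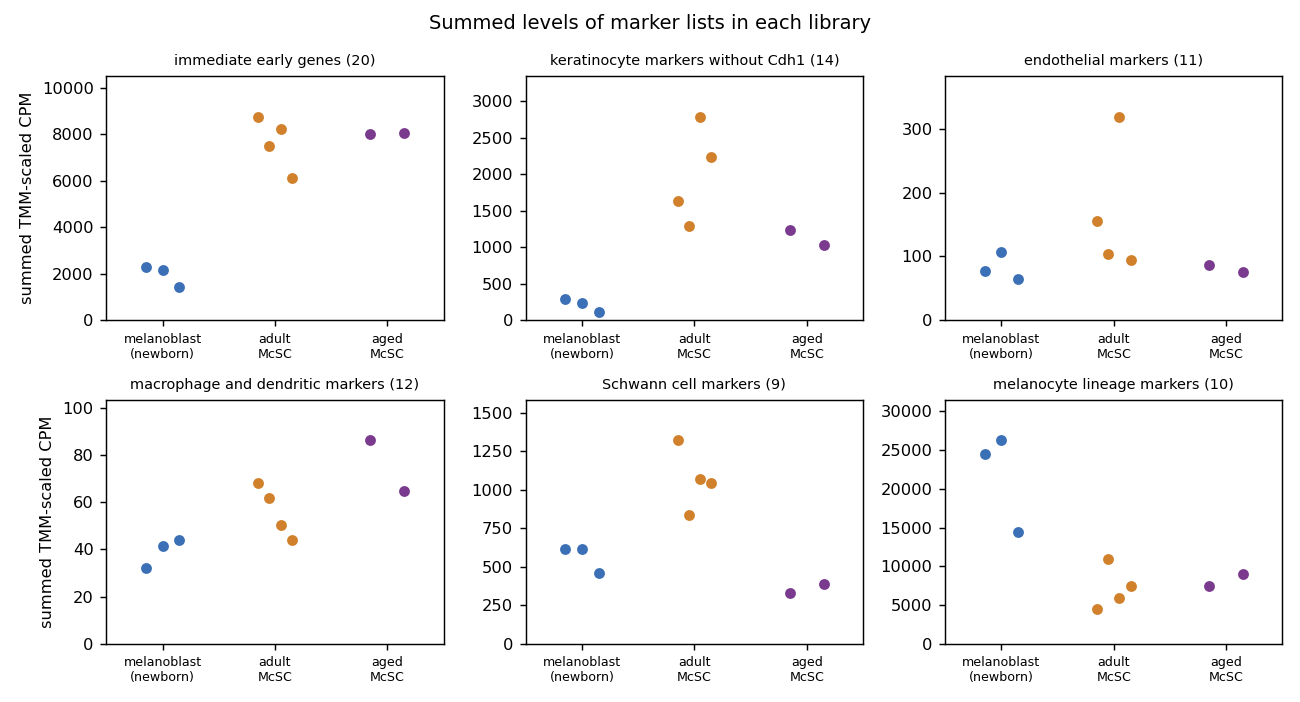
Summed TMM-scaled CPM (y axis, linear from 0) of the immediate early genes and of marker lists of 5 cell types in each library (points), by age group (x axis). Immediate early genes sum to 6110 to 8764 CPM in adult McSC and 8016 to 8072 in aged McSC, above the 1409 to 2298 CPM of melanoblasts.

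Markers of other skin cells also moved with this comparison, where 15.1% of all genes tested rose and 18.3% fell. Of 15 keratinocyte and follicle markers, 14 rose in adult McSC, and none was at 0 in all libraries. The most abundant, Cdh1, fell to 354 ± 95.2 CPM in adult McSC, against 1885 ± 352 CPM in melanoblasts; the other 14 summed to 1291 to 2791 CPM in adult McSC and 106 to 294 CPM in melanoblasts (Cdh1 was set apart after its values were seen). Endothelial markers summed to 93.8 to 319 CPM in adult McSC and 64.2 to 107 in melanoblasts (5 of 11 rose), macrophage and dendritic markers to 44.0 to 68.1 and 32.3 to 43.9 CPM in the same groups (5 of 12 rose), and Schwann cell markers to 834 to 1323 and 459 to 618 CPM (4 of 9 rose). Ptprc, the gene of CD45, had 4.15 to 7.44 CPM in adult McSC and 0.678 to 3.17 CPM in melanoblasts. Of 9 fibroblast markers 2 rose and 5 fell, and 2 rose and none fell with factors taken from abundant genes. Melanocyte lineage markers summed to 4480 to 10930 CPM in adult McSC and 14482 to 26271 CPM in melanoblasts; 8 of 10 fell and none rose (7 and none with factors from abundant genes), with a median log2 fold change of -1.49. Mast cell and T and NK cell markers summed to at most 34.3 and 23.6 CPM in any library. In bulk RNA, more cells of a type and more RNA per cell cannot be told apart, and the part of these cells, or of the lower lineage markers, in the rise of the 7 genes was not tested.

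The wider NF-κB lists held genes called in both directions, in numbers that depend on the normalization. Of all genes tested, 15.1% rose and 18.3% fell. Of 8 other subunit and IκB genes, 2 rose, 1 fell and the median was 0.32, and 4 rose and 1 fell with factors from abundant genes. Bcl3, a nuclear IκB protein that acts with p50 and p52, averaged 19.1 ± 4.01 CPM in adult McSC and 1.91 ± 1.37 CPM in melanoblasts (SD, n = 4 and 3), and its rise of 3.31 in log2 units passed edgeR's test (SE 0.374; adjusted p = 3.05e-07). Nfkbie, the gene of IκBε, rose by 0.90, and Nkiras2, a Ras-like protein that binds IκB, fell by 1.64 on the log2 scale. Rel, the gene of c-Rel, had 126 ± 25.9 CPM in adult McSC and 89.1 ± 13.4 CPM in melanoblasts and did not pass (adjusted p = 0.082 by edgeR).

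Of 16 IKK and upstream kinase genes, 3 rose and 7 fell, with a median of -0.31, where 15.1% of all genes tested rose and 18.3% fell. When factors came from abundant genes, the counts were 8 higher and 1 lower, so the direction of this list rests on the normalization. Ripk1, a kinase of the TNF receptor complex, averaged 97.8 ± 7.72 CPM in adult McSC and 38.3 ± 5.67 CPM in melanoblasts and rose by 1.35 on the log2 scale. Map3k8 (Tpl2), a kinase held by p105, rose by 1.17. Map3k14, the gene of NIK in the noncanonical branch, rose by 1.51 (adjusted p = 0.00204 by edgeR) and was picked after its value was seen. Map3k7, the gene of the IKK-activating kinase TAK1, averaged 67.2 ± 12.2 CPM in adult McSC and 169 ± 25.1 CPM in melanoblasts and fell by 1.33, and it also fell with factors from abundant genes (-0.53). Its partner Tab2 fell by 1.06 and Ikbkg, the IKK scaffold NEMO, also picked after its value was seen, fell by 1.15; neither was called with those factors.

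The adaptors and ubiquitin enzymes were divided, as were all genes tested, of which 15.1% rose and 18.3% fell. Of 10 TRAF and adaptor genes 3 rose and 3 fell, and 5 rose and 1 fell under abundant-gene factors. Traf6, the ubiquitin ligase of interleukin-1 and Toll-like receptor signalling, averaged 66.7 ± 11.7 CPM in adult McSC and 183 ± 24.3 CPM in melanoblasts and fell by 1.46, and Traf3, a restraint on NIK, fell by 0.80 (-0.026 and not called with those factors). Myd88 and Traf3ip2, adaptors of Toll-like and interleukin-17 receptors, rose by 0.92 and 0.76. Birc2, the paralogue of Birc3, rose by 0.59 (adjusted p = 0.0377 by edgeR) and was picked after its value was seen. Of 13 ubiquitin editors, 3 rose and 3 fell, and 7 rose and none fell with factors from abundant genes. Rnf31, the catalytic subunit of the linear ubiquitin ligase, rose by 1.41. Tnip3, an A20-binding protein, rose by 3.10 at a low level (1.85 CPM in adult McSC and 0.203 CPM in melanoblasts). The background of odorant and vomeronasal receptor genes (95th percentile) was 1.85 and 0.823 CPM in these groups. Tnip3 was thus about at background in adult McSC and below it in melanoblasts. The deubiquitinases Otulin and Otud7b fell by 0.90 and 0.67, and neither was called with those factors, where Otud7b was at 0.14.

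Receptors, ligands and other targets were higher more often than lower, where 15.1% of all genes tested rose and 18.3% fell. With factors from abundant genes, 85.2% of calls over all genes were higher too. Of 18 receptors 5 rose and 2 fell, and 9 rose and 2 fell with factors from abundant genes. Tnfrsf12a, the receptor of TWEAK and an activator of the noncanonical branch, averaged 32.9 ± 5.42 CPM in adult McSC and 3.88 ± 0.688 CPM in melanoblasts and rose by 3.09, and Il18r1, a receptor chain for interleukin-18, also rose (adjusted p = 0.00176 by edgeR). Il1rap, the shared interleukin-1 receptor chain, fell by 1.62 and Tnfrsf19 by 1.87. Of 12 ligands tested out of 13 listed, 4 rose and none fell (6 and none with those factors). Il33, an alarmin of the interleukin-1 family, was at 13.0 to 31.4 CPM in adult McSC and 0.261 to 0.903 CPM in melanoblasts, and Eda (ectodysplasin) rose by 2.00, Il18 by 2.89 and Tnfsf11 (RANKL) by 1.82. Tnf itself averaged 1.87 ± 0.722 CPM in adult McSC and 1.34 ± 0.293 CPM in melanoblasts and did not pass. The background of odorant and vomeronasal receptor genes (95th percentile) was 1.85 CPM in adult McSC and 0.823 CPM in melanoblasts. Tnf was thus about at background in adult McSC, and Il33 ranged from below to just above it in melanoblasts.

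Of 27 other targets tested out of 29 listed, 9 rose and 3 fell (16 and 0 with factors from abundant genes), and their median of 0.49 lay near the 0.39 of all genes. Gadd45b, a stress protein that restrains JNK signalling, averaged 52.0 ± 20.1 CPM in adult McSC and 9.50 ± 1.97 CPM in melanoblasts and rose by 2.45. Sdc4 (a syndecan), Cxcl10 (a chemokine) and Irf1 (an interferon regulatory factor) rose by 2.76, 1.97 and 1.41 on the log2 scale.

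**Figure D4:**
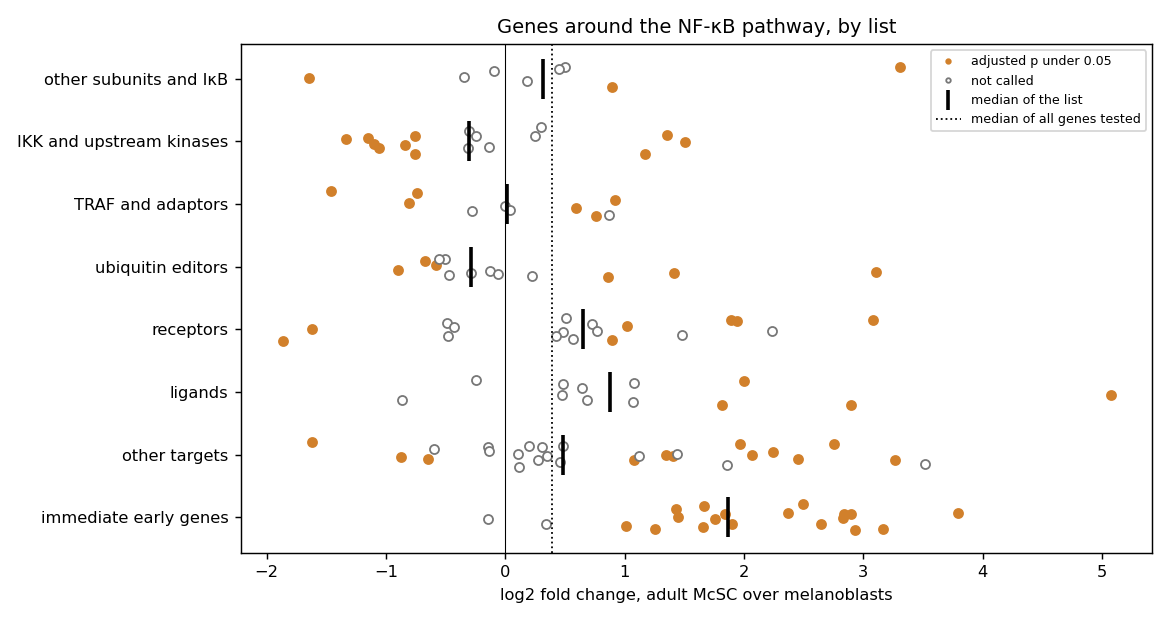
Log2 fold change of adult McSC over melanoblasts (x axis) for each tested gene of 8 lists (rows); filled points passed an adjusted p of 0.05 by edgeR, black ticks are list medians and the dotted line is the median of all genes tested, 0.39. Immediate early genes lie almost wholly to the right, whereas IKK and upstream kinases lie on both sides.

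Aged McSC were set against adult McSC to see what differs at 24 months. None of the 10 genes was called by edgeR, where 0.303% of all genes tested were called, 0.0532% higher and 0.25% lower. At an unadjusted p under 0.05 there were 3 (Rela, Birc3 and Ier3), where 3275 of the 31961 genes tested passed. DESeq2 and limma voom each called 1 member, Birc3. The median log2 fold change of the 10 was -0.32 and that of all genes was 0.078. In 3 genes (Nfkb1, Birc3 and Ier3) both aged libraries lay below all 4 adult ones, where the share of all genes was 12.1%. The 2 aged libraries limit what this comparison can detect.

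Birc3 had the largest difference, at 31.5 and 21.1 CPM in aged McSC, against 61.0, 49.8, 65.3 and 49.1 CPM in adult McSC. Both aged libraries were low, and aged McSC 2 was at the level of melanoblasts. The log2 fold change was -1.10 (SE 0.27, unadjusted p = 0.000443, adjusted p = 0.0963 by edgeR). It was called in 6 of 18 alternative settings, among them DESeq2 (-1.17, adjusted p = 0.011), limma voom (-1.12, adjusted p = 0.0046) and a fit without melanoblast 3 (adjusted p = 0.0221). Without aged McSC 2 it was -0.80 (adjusted p = 0.956), and over all settings the adjusted p ran from 0.0046 to 0.956.

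Ier3 had 46.0 and 30.7 CPM in aged McSC, just under the lowest adult library at 49.1 CPM, a difference of -0.58 in log2 units (SE 0.265, adjusted p = 0.473 by edgeR). Nfkb1 had 72.5 and 71.1 CPM in aged McSC, also below the adult range of 81.3 to 92.6 CPM, a difference of -0.27 in log2 units (SE 0.231, adjusted p = 0.705 by edgeR). Rela had 26.7 and 19.3 CPM in aged McSC, 1 library above and 1 below adult McSC 1 (24.1 CPM), and its log2 fold change was -0.67 (SE 0.296, adjusted p = 0.457 by edgeR).

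The other members overlapped between the ages. Nfkbiz had 126 and 145 CPM in aged McSC, inside the adult range of 103 to 172 CPM, with a log2 fold change of 0.012 (SE 0.257). Nfkbia had 38.9 and 40.1 CPM, inside the adult range of 34.1 to 56.7 CPM (-0.29, SE 0.266). Tnfaip3 had 34.6 and 25.0 CPM, with aged McSC 2 just below the adult range of 26.4 to 50.9 CPM (-0.35, SE 0.4). Nfkb2 (13.4 and 12.1 CPM), Relb (11.4 and 8.39 CPM) and Icam1 (19.9 and 11.6 CPM) gave log2 fold changes of -0.41, -0.11 and 0.036 with SEs of 0.291, 0.375 and 0.377. SEs of this size do not show that the ages were alike.

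In aged against adult McSC, edgeR called none of the 124 tested genes of the 7 wider NF-κB lists and the immediate early list. At an unadjusted p under 0.05 there were 16, where 3275 of the 31961 genes tested passed. DESeq2 called 0 of the 124 and limma voom 5 (Bcl3, Klf4, Sdc4, Tab2 and Tnfrsf1a). Among cell markers, Schwann cell markers summed to 331 to 389 CPM in aged McSC and 834 to 1323 CPM in adult McSC (5 of 9 fell), and fibroblast markers to 159 to 292 and 521 to 1006 CPM in the same groups (3 of 9 fell). Of all genes tested, 0.25% fell. With factors from abundant genes, 2 Schwann cell markers and no fibroblast marker fell. Keratinocyte markers without Cdh1 summed to 1033 to 1241 CPM in aged McSC and 1291 to 2791 CPM in adult McSC. The part of these cells in the lower Birc3, Ier3 and Nfkb1 values was not tested.

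Aged McSC were also compared with melanoblasts; this comparison shares its libraries with both others, and is not independent of them. Of the 10 genes 3 rose (Nfkbia, Nfkbiz and Ier3) and none fell, where 20.4% of all genes tested rose and 20.3% fell; the members' median of 0.91 stood beside 0.70 for all genes. At an unadjusted p under 0.05 the count was 7, where 16246 of the 31961 genes tested passed. DESeq2 called no member lower and limma voom called Rela lower. In 6 of the 10 both aged libraries lay above all melanoblast libraries, where the share was 40.4%. Nfkbiz, at 126 and 145 CPM in aged McSC against 26.9 to 41.1 CPM in melanoblasts, differed by 1.99 in log2 units (SE 0.271, adjusted p = 6.26e-06 by edgeR). Nfkbia differed by 0.98 in log2 units (SE 0.276, adjusted p = 0.00734) and Ier3 by 1.16 (SE 0.272, adjusted p = 0.00178), which without aged McSC 1 was 0.90 (adjusted p = 0.0508). Birc3, at 31.5 and 21.1 CPM in aged McSC, overlapped the melanoblast range of 14.4 to 21.6 CPM and was not called (log2 fold change 0.51, SE 0.271, adjusted p = 0.129). Without aged McSC 2 it was 0.90 and called (adjusted p = 0.0465 by edgeR), and without aged McSC 1 it was 0.25 (adjusted p = 0.609). Rela differed by -0.53 in log2 units and was not called (adjusted p = 0.164 by edgeR); it was called lower by limma voom (-0.67, adjusted p = 0.0304) and without melanoblast 3 (-0.75, adjusted p = 0.0315), and called higher with factors from abundant genes (0.63, adjusted p = 0.0281). Tnfaip3 (1.03, adjusted p = 0.0533 by edgeR), Icam1 (0.90, adjusted p = 0.073) and Relb (0.93, adjusted p = 0.0627) were not called; without melanoblast 2 Tnfaip3 was 1.63 and Icam1 1.45, and without melanoblast 1 Relb was 1.54, all 3 called. The count of 3 rests on the setting: 9 or 10 members were called with a stricter filter or factors from abundant genes. With the latter, 14903 of the 31961 genes tested were also called higher. The median log2 fold change was then 1.754 for all genes and 2.105 for the members.

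Cell markers moved with this comparison too, where 20.4% of all genes tested rose and 20.3% fell. Of 15 keratinocyte and follicle markers 14 rose and 1 fell, and without Cdh1 they summed to 1033 to 1241 CPM in aged McSC and 106 to 294 CPM in melanoblasts. Of 12 macrophage and dendritic markers 7 rose and none fell (sums of 64.8 to 86.2 CPM in aged McSC and 32.3 to 43.9 CPM in melanoblasts), and of 9 T and NK cell markers 3 rose and none fell (16.3 to 23.6 and 5.79 to 11.7 CPM in the same groups). Of 20 immediate early genes 17 rose and none fell. Of 9 fibroblast markers 1 rose and 7 fell (159 to 292 CPM in aged McSC and 622 to 2202 CPM in melanoblasts), and of 10 lineage markers none rose and 7 fell (7487 to 8998 CPM in aged McSC and 14482 to 26271 CPM in melanoblasts). With factors from abundant genes, 2 fibroblast markers rose and 3 fell, and 1 lineage marker rose and 6 fell. The part of these in the values of the members was not tested.

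The genes whose pattern over the 9 libraries was most like that of Nfkbia, Tnfaip3 and Relb were sought among protein-coding genes with a mean log2 CPM of at least 3, by the root mean square difference of centred log2 CPM. For Nfkbia they were Klf10 (0.134), Rftn2 (0.197) and Plk2 (0.202). For Tnfaip3 they were F11r (0.294), Synpo2 (0.299) and Icam1 (0.313), and for Relb they included Bcl6 (0.290) and Myof (0.304). Among the 10 members themselves, the nearest pairs were Birc3 with Ier3 (0.307), Tnfaip3 with Icam1 (0.313) and Nfkb1 with Nfkb2 (0.323). Nfkbia was nearest to Ier3 (0.334), Rela to Nfkb1 (0.381), Nfkbiz to Nfkbia (0.410) and Relb to Nfkbia (0.481). These libraries share depth, amplification and group differences, and the likeness is a description.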

How the data were processed

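Cells were sorted, pooled and sequenced in 9 libraries, grouped by sample titles. Total RNA (20 ng) was amplified to cDNA, of which 1000 ng entered library construction with 10 PCR cycles and sequencing as 126-base read pairs, per the labels' protocols. Such amplification keeps no molecule counts. The authors deposited whole-number counts for each Ensembl gene, not normalized. Per the submitters' processing notes, the tools were STAR 2.5.2 on mm10, Trimmomatic 0.36, FastQC 0.11.8, DESeq2 1.22.2 and SAMtools 1.9. How reads were assigned to genes, with which annotation and whether by strand is not given in the sources used here.

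Identifiers were matched to GENCODE M21 (49412 of 49671; the other 259 held 0.029% of counts and stayed in). In R 4.3.3, edgeR 4.0.16 was run on the counts with TMM factors and filterByExpr, and 31961 genes were tested. The 3 groups were fitted in 1 model without covariates, with the robust quasi-likelihood F test and Benjamini-Hochberg adjustment over all genes in each of 3 comparisons at 0.05. SEs came from the F statistic, and log2 CPM used a prior count of 2. A gene with no read could still be at 3 counts, or 0.117 to 0.187 CPM, by counting error alone. Within groups, library pairs differed by 15.2 to 63.3 in chi-square per degree of freedom, so each was counted once. The fitting script was tested on simulated data. The settings tried beside this were RLE factors, factors from genes with a mean log2 CPM of at least 5, limma 3.58.1 with voom quality weights, DESeq2 1.42.0, a fit of only the 2 groups compared, a replicate block, no filter, a filter of 5 CPM in 2 libraries, and left-out libraries.

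Members and lists were chosen with earlier results of these data known. Beyond the 10 members, the text names up to 4 genes per list with the smallest adjusted p in adult McSC over melanoblasts, the most abundant marker where it bears on a result, and the genes most like Nfkbia, Tnfaip3 and Relb; Kit-sorted identity was checked with Dct, and Ptprc, Rel, Tnf, Map3k14, Ikbkg, Birc2 and the genes called by limma voom in aged over adult McSC were added after their values were seen. A gene that this rule names is not reported here. Promoter sequences came from RefSeq (GRCm38.p6).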

Additional observations from a re-analysis of the deposited data

How the results depend on the processing

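In adult McSC over melanoblasts, the count of 7 members that rose was 6 to 10 over the 18 alternative settings, and 6 to 9 when a library was left out. The 10676 genes called in all became 6877 with the stricter filter. In aged over adult McSC, 1 member fell (Birc3) with DESeq2, limma voom, no filter, only the 2 groups compared and without melanoblast 3 and adult McSC 2; leaving out single libraries gave 0 to 1. The 97 genes called in all became 314 with DESeq2, 1416 with limma voom, 45 with factors from abundant genes, 343 with no filter, 311 with only the 2 groups, 172 with the replicate block, 278 without both doubted libraries, and 13 to 303 with single libraries left out. In aged McSC over melanoblasts, the 3 members that rose became 6 with limma voom, 10 with factors from abundant genes, 6 with no filter, 9 with the stricter filter, and 2 to 6 with single libraries left out. There 1 member fell (Rela) with limma voom and without both doubted libraries, and 0 to 1 with single libraries left out. The 13005 genes called became 7611 with the stricter filter, and 7410 to 16292 with single libraries left out.

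Signs that reversed included differences that had been called. Rela in adult McSC over melanoblasts was -0.20 without both doubted libraries and -0.083 to 0.38 with single ones left out, and in aged McSC over melanoblasts it was 0.63 and called higher with factors from abundant genes, called lower by limma voom (-0.67), and 0.19 with the stricter filter. Otud7b, which fell by 0.67 in adult McSC over melanoblasts, was 0.14 and not called with factors from abundant genes. In aged over adult McSC, where edgeR called no member, Nfkb1 was 0.039 and Relb 0.17 with those factors, Relb was 0.079 with the stricter filter, Nfkbiz was -0.066 with DESeq2, -0.067 with RLE factors, -0.025 with no filter, -0.18 with the block and -0.045 without both doubted libraries, and Icam1 was -0.043 with DESeq2 and with RLE factors and -0.35 with the block. With single libraries left out, Relb ran from -0.39 to 0.12, Nfkbiz from -0.095 to 0.17 and Icam1 from -0.44 to 0.40. The cause was not tested.

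Replicate numbers shared between groups gave no evident pairing: deviations of same-numbered libraries correlated at -0.0798 to 0.202. Differently numbered libraries correlated at -0.236 to 0.285. With groups of 2 to 4 libraries, these values cannot show that the samples were unpaired. With the replicate block, 8 members rose in adult McSC over melanoblasts, and 9035, 172 and 12740 genes were called in the 3 comparisons. Aged McSC had 2 libraries and the lowest depth, which limits what could be detected there.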
